A study of Mus musculus with 19 samples.

Results

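Matrix metalloproteinases (MMPs) are zinc-dependent enzymes that are made as inactive precursors and cut the proteins of the extracellular matrix, and Timp1 encodes a secreted inhibitor that binds and blocks them. Levels of 10 genes, Mmp2, Mmp3, Mmp7, Mmp9, Mmp10, Mmp11, Mmp12, Mmp13, Mmp14 and Timp1, were followed in bulk RNA sequencing of mouse skin tumours and normal skin. They were chosen by gene symbol from a table of 34807 genes, all 10 were found there, and 9 of them held enough counts to be tested. The tumours, labelled as squamous cell carcinoma, came from female mice in which the oncogene BRAFV600E had been switched on in the skin by a tamoxifen-inducible Cre recombinase. In Ivl tumours (Ivl:BRAFV600E, 6 libraries) the Ivl promoter, which works in differentiating and committed keratinocytes, drove Cre, and in K5 (K5:BRAFV600E, 5) and K14 tumours (K14:BRAFV600E, 4) a promoter of basal keratinocytes did. Normal skin (4 libraries, WT) came from female wild-type mice. The labels give an age of 7 to 20 weeks for all 19 samples, normal skin included, and no age for a single sample. According to the study, K5 and K14 tumours grew where tamoxifen had been applied to the back, and Ivl tumours also arose at other sites. It also reports a longer time to onset for Ivl than for K5 and K14 tumours. Its methods name tamoxifen for Ivl mice and 4-hydroxytamoxifen for K5 and K14 mice, unless otherwise stated. The promoter thus cannot be told apart from the body site, the time to onset or the inducing drug. K5 and K14 tumours were pooled into 1 group of 9 (K5/K14) after they had been compared with each other.

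The enzymes differ in their targets and sources. Mmp13 is the main interstitial collagenase of the mouse, Mmp3 and Mmp10 are the stromelysins, which also activate other precursors, Mmp9 and Mmp2 are the gelatinases, which cut denatured collagen and basement membrane collagen, Mmp12 is the elastase of macrophages, Mmp11 and the membrane-bound Mmp14 are made largely by fibroblasts of the stroma, Mmp14 activates the Mmp2 precursor, and Mmp7 is the small matrilysin of glandular epithelia. In wounded and cancerous skin, basal keratinocytes at the edge of the epithelium are known to make stromelysins and collagenase, and neutrophils carry Mmp9. In whole tissue, fewer cells of a type and less RNA per cell cannot be told apart.

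Libraries held 45715309 to 72609771 counts. The values are counts that the authors had adjusted for a sequencing batch, and levels are given as CPM (counts per 1000000, scaled by TMM, a library scaling factor). The factors were 1.43 to 1.66 in skin and 0.81 to 1.15 in tumours, and with library totals in their place the median log2 fold change of all genes moved from -0.46 to -1.13 in Ivl and from -0.60 to -1.40 in K5/K14 tumours against skin. Rn7sk, a small nuclear RNA, was at 2279 to 3275 per 1000000 counts (library totals) in skin. It stood at 1283 in Ivl 2, 934 in Ivl 3 and 2.12 to 13.3 in the other tumours. Genes at 0 numbered 3242 to 3670 in skin and 5562 to 10882 in tumours. Skin and tumour libraries thus differed in the RNA that was counted. Whether this difference came from the tissue or from library preparation was not tested, nor was its part in the fold changes against skin. A set of 4 libraries, Ivl 1, 2 and 3 and K5 1, stood apart. Means were compared per 1000000 counts (library totals, without TMM). The mean of the set differed from that of the other 15 libraries, which include all normal skin, by under 0.1 log2 for 96.6% of 13954 genes. It differed that little from the mean of the other 11 tumours for 24%. On this scale the set had a mean of 111 for Mmp13, the other 15 libraries 116 and the other 11 tumours 158. The match was not computed for TMM-scaled levels. Results are therefore also given for the 15 libraries without this set, which keep 3 Ivl tumours. Of the marker genes of skin cell types, those of keratinocytes summed to 38775 to 104876 CPM in tumours and 8259 to 14085 in normal skin, and none of the 9 was at 0 in any library. Of these 9 keratinocyte markers 7 rose in Ivl and 9 in K5/K14 tumours against skin, where 20.4% and 23.2% of all genes rose. Of 5 skeletal muscle markers 0 and 5 fell, where 15.5% and 38.9% of all genes fell. The part of either list in the values that follow was not tested.

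Mmp13, Mmp12, Mmp3, Mmp10 and Mmp7 lie in this order on chromosome 9 (GRCm38, bases 7272514 to 7699585), in a stretch of 427 kb that holds 10 Mmp genes. Mmp2 lies on chromosome 8 (92827291 to 92853420), Mmp9 on chromosome 2 (164940780 to 164955850), Mmp11 on chromosome 10 (75923222 to 75936496), Mmp14 on chromosome 14 (54431612 to 54445364) and Timp1 on chromosome X (20870166 to 20874735), inside an intron of Syn1. The sequence TGACTCA, the binding sequence of the AP-1 transcription factors, which act downstream of the MAPK pathway, was searched on both strands in the 250 bases before each transcript start given by RefSeq (GRCm38.p6). Starts were listed for 8 of the 10 genes, all but Mmp2 and Mmp9. It was present in 5 of them, Mmp3, Mmp7, Mmp10, Mmp12 and Mmp13 (in Mmp7 and Mmp12 at 1 of their 2 starts), all in the cluster, and absent from Mmp11, Mmp14 and Timp1, against 4.46% of 32851 promoters in all. The 120 bases before the start are printed for the 3 of these 5 genes with the highest fold changes against skin, for Mmp7 (the start with the match), which was nearly absent, and for Mmp14, with the AP-1 sequence or its reverse complement in capitals.
Mmp13 (chr9:7272394-7272513, plus strand): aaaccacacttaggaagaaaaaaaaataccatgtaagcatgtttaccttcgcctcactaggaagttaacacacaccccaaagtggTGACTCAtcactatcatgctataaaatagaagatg
Mmp10 (chr9:7502222-7502341, plus strand): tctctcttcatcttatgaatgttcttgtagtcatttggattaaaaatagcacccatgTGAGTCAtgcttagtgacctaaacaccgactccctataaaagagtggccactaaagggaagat
Mmp3 (chr9:7445702-7445821, plus strand): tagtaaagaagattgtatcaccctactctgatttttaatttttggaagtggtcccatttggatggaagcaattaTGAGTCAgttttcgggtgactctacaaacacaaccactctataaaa
Mmp7 (chr9:7691970-7692089, plus strand): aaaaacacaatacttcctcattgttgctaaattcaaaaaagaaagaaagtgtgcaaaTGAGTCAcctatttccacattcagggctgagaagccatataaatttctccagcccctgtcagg
Mmp14 (chr14:54431478-54431597, plus strand): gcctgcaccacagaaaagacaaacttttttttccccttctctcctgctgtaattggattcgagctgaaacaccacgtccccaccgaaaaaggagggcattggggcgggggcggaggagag
The match began 35 bases before the start in Mmp13, 46 in Mmp3, and 63 in Mmp10 and in Mmp7. Of the other cluster genes with a listed start, Mmp1a and Mmp1b held a match, and Mmp8, Mmp20 and Mmp27 did not. The share of 4.46% counts single promoters, whereas a gene with more than 1 start was counted once. A match is a description of these letters, and binding was not measured. At 1 or more of their starts, the sequence TATAAA was found in the 250 bases of Mmp3, Mmp7, Mmp10 and Mmp13 and in 12.4% of all promoters, and AGGAAG, bound by ETS factors of the PEA3 type, in those of Mmp3, Mmp7, Mmp12, Mmp13, Mmp14 and Timp1 and in 29.5% of all. Neither overlapped a TGACTCA match in the members.

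Mmp13 and Mmp10 rose most. Mmp13 stood at 0.40, 0.19, 2.12 and 2.99 CPM in normal skin. In Ivl tumours it ranged from 1.91 to 136 CPM (median 69.3, n = 6). In K5 tumours it was at 333, 68.9, 259, 345 and 223 CPM and in K14 tumours at 67.1, 46.1, 455 and 305 CPM. All 9 K5/K14 tumours were above every sample of normal skin, and of the Ivl tumours only Ivl 1 fell within the range of skin. Against normal skin the log2 fold change was 5.56 ± 1.12 (SE) in Ivl tumours (adjusted p = 0.000868, edgeR) and 7.35 ± 1.21 in K5/K14 tumours (adjusted p = 8.56e-05, edgeR). Mmp10, a stromelysin, held 7, 1, 25 and 10 counts in the 4 samples of normal skin, that is 0.23 CPM or less. It ranged from 0.40 to 23.6 CPM in Ivl tumours (median 9.38) and from 4.95 to 93.7 in K5/K14 tumours (median 59.95, n = 9), with no overlap of either group with skin. Its log2 fold change was 6.73 ± 1.24 in Ivl (adjusted p = 0.000412, edgeR) and 8.88 ± 1.34 in K5/K14 tumours (adjusted p = 3.79e-05, edgeR).

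Mmp9 and Mmp3 rose in K5/K14 tumours. Mmp9 was at 0.83, 2.24, 13.3 and 16.5 CPM in normal skin. It lay between 6.28 and 70.1 CPM in Ivl tumours (median 55.7) and between 74.3 and 465 CPM in K5/K14 tumours (median 230.1). The K5/K14 range thus began above the highest Ivl tumour, while Ivl 1 and Ivl 6, at 6.30 and 6.28 CPM, sat inside the range of skin. The log2 fold change against skin was 4.85 ± 0.98 in K5/K14 tumours (adjusted p = 0.000515, edgeR) and 2.40 ± 0.87 in Ivl tumours (adjusted p = 0.0406, edgeR). Markers of neutrophils, known carriers of Mmp9, summed to 1.07 to 14.3 CPM in skin, 6.44 to 42.1 in Ivl and 20.6 to 51.2 in K5/K14 tumours. Of the 8 genes 2 rose and 1 fell in each tumour group, and 1 was at 0 in all skin libraries. Of all genes 20.4% rose and 15.5% fell in Ivl, and 23.2% rose and 38.9% fell in K5/K14 tumours. The part of neutrophils in the change of Mmp9 was not tested. Mmp3, the other stromelysin, was at 1.37, 3.25, 15.6 and 19.8 CPM in normal skin. It ranged from 4.83 to 75.1 CPM in Ivl tumours (median 30.1) and from 8.57 to 235 CPM in K5/K14 tumours (median 138). Both tumour groups overlapped skin, K5/K14 through K14 2 alone. The log2 fold change of Mmp3 was 3.51 ± 0.96 in K5/K14 tumours (adjusted p = 0.00474, edgeR) and 1.70 ± 0.89 in Ivl tumours (adjusted p = 0.132, edgeR), the latter not past the threshold. Mmp3 and Mmp10 have 8.39% and 8.37% of their 50-base stretches in common with other transcripts, most often each other's, so some reads could have been assigned to either.

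**Figure D1:**
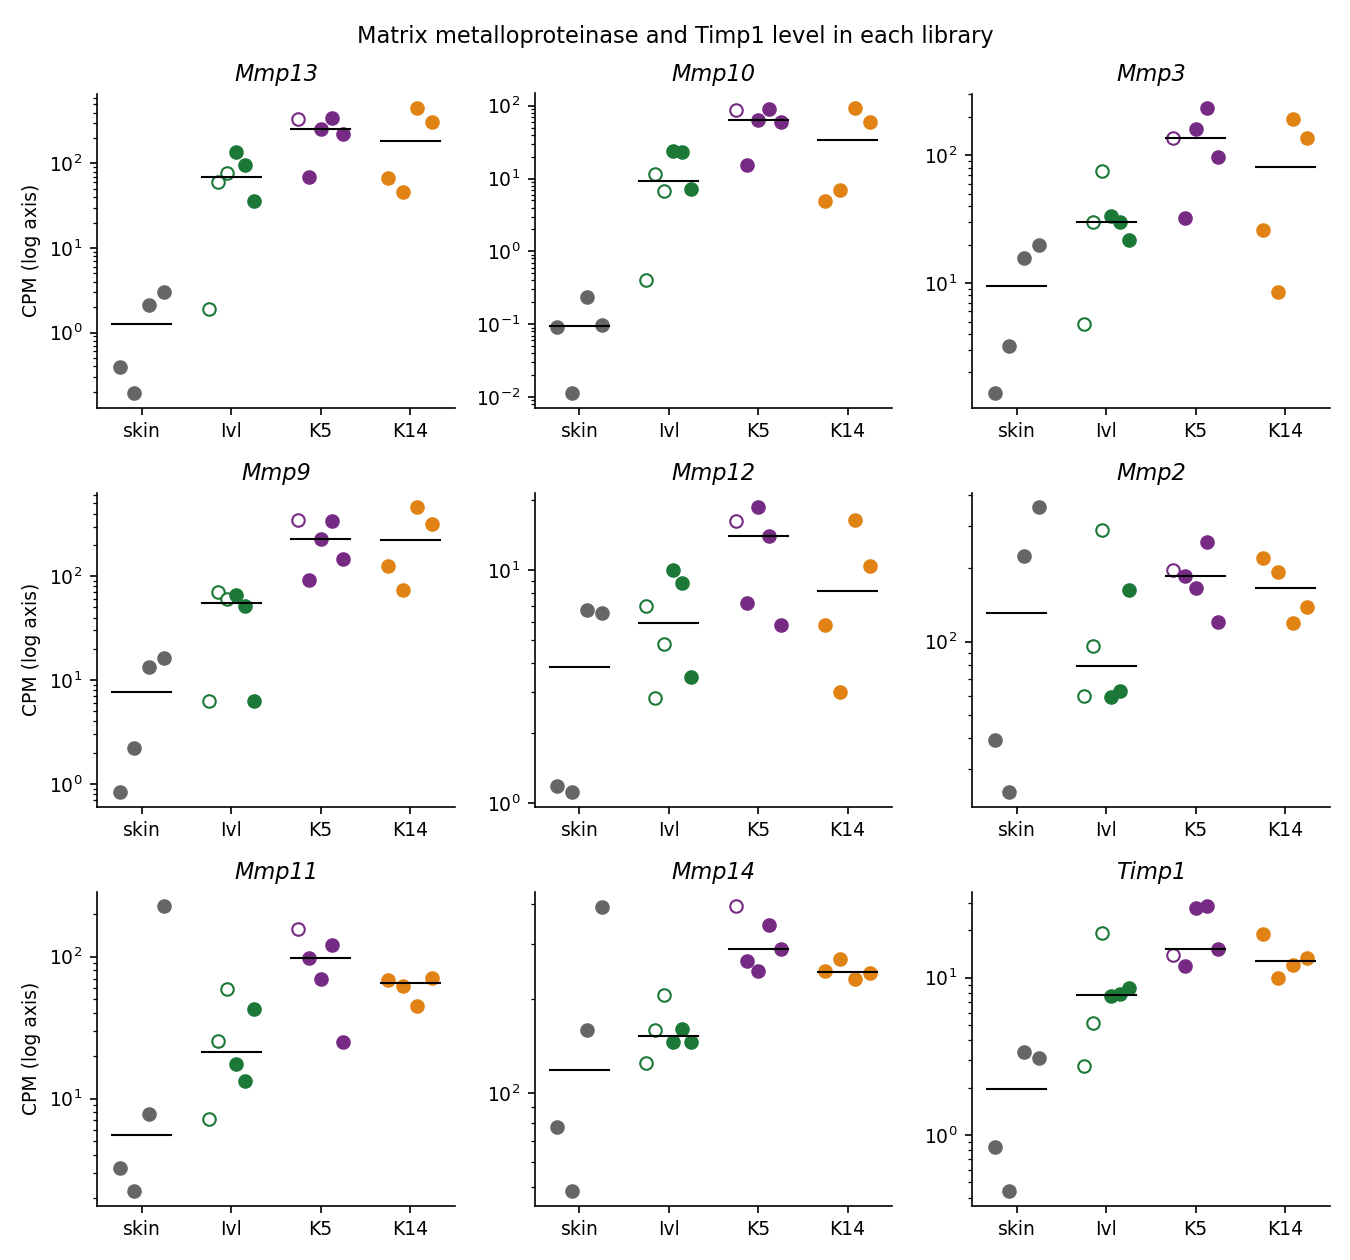
CPM on a log axis (vertical) in each library of normal skin, Ivl, K5 and K14 tumours (horizontal), 1 panel a gene; lines mark group medians and open circles the set of 4 libraries that stood apart. Mmp13 and Mmp10 lie far above skin in nearly every tumour, whereas Mmp2, Mmp11 and Mmp14 spread as widely in skin as in tumours.

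Mmp12, the macrophage elastase, was at 1.19, 1.11, 6.76 and 6.53 CPM in normal skin, at 2.84 to 10.02 CPM in Ivl tumours (median 5.91) and at 2.996 to 18.7 CPM in K5/K14 tumours (median 10.5). It rose in K5/K14 tumours by a log2 fold change of 1.48 ± 0.56 (adjusted p = 0.0290, edgeR), and its value in Ivl tumours was 0.66 ± 0.57 (adjusted p = 0.341, edgeR). All groups overlapped. Of 7 macrophage markers none rose in either tumour group, where 20.4% of all genes rose in Ivl and 23.2% in K5/K14 tumours. In K5/K14 tumours 1 of the 7 fell, where 38.9% of all genes fell. The summed level of the 7 was 82.8 to 865 CPM in skin, 142 to 451 in Ivl and 139 to 326 in K5/K14 tumours. Their part in the values of Mmp12 was not tested.

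Timp1, the inhibitor, rose in both tumour groups. It was at 0.84, 0.44, 3.35 and 3.07 CPM in normal skin. In Ivl tumours it ranged from 2.75 to 19.2 CPM (median 7.75), in K5 tumours it stood at 13.9, 11.8, 27.6, 28.7 and 15.2 CPM, and in K14 tumours at 19.04, 9.96, 12.1 and 13.4 CPM. K5/K14 tumours did not overlap skin, and Ivl 1 alone of the Ivl tumours did. The log2 fold change was 2.14 ± 0.56 in Ivl (adjusted p = 0.00623, edgeR) and 3.125 ± 0.57 in K5/K14 tumours (adjusted p = 0.000190, edgeR).

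The fibroblast-associated genes Mmp2, Mmp11 and Mmp14 did not pass the test in either tumour group. Mmp2 was at 39.4, 24.0, 224 and 359 CPM in normal skin, 59.1 to 287 CPM in Ivl and 120 to 257 CPM in K5/K14 tumours. Its log2 fold change was -0.41 ± 0.59 in Ivl tumours (95% CI -1.64 to 0.81) and 0.14 ± 0.55 in K5/K14 tumours (95% CI -1.02 to 1.298). Mmp14 was at 77.8, 48.4, 158 and 393 CPM in skin, 124 to 205 CPM in Ivl and 231 to 396 CPM in K5/K14 tumours, with log2 fold changes of -0.11 ± 0.37 (95% CI -0.89 to 0.66) and 0.73 ± 0.36 (adjusted p = 0.0822, edgeR). The intervals of Mmp2, and that of Mmp14 in Ivl tumours, reach to both sides of 0. Mmp11 was at 3.24, 2.21, 7.76 and 228 CPM in skin, so that 1 sample, skin 4, held the highest value of all 19 libraries. In Ivl tumours Mmp11 ranged from 7.18 to 59.4 CPM and in K5/K14 tumours from 24.9 to 156 CPM, with log2 fold changes of -1.13 ± 0.95 and 0.40 ± 0.92. Without skin 4 these values of Mmp11 became 2.63 ± 0.68 (adjusted p = 0.00749, edgeR) and 4.17 ± 0.74 (adjusted p = 0.000217, edgeR), and Mmp14 reached 1.56 ± 0.28 in K5/K14 tumours (adjusted p = 0.000174, edgeR). Mmp14 in Ivl tumours was then at 0.71 ± 0.27 (adjusted p = 0.0542, edgeR), not past the threshold. Skin 3 and skin 4 also held the most fibroblast RNA, with 8 markers summing to 13387 and 18554 CPM against 3336 and 851 in skin 1 and skin 2. The same sum was 1534 to 10909 CPM in Ivl tumours (median 2252) and 3901 to 15211 in K5/K14 tumours (median 8056). Of the 8 markers 0 rose in either group, and 0 fell in Ivl and 1 in K5/K14 tumours. Of all genes 20.4% and 23.2% rose, and 15.5% and 38.9% fell. In the 15 libraries 3 and 1 of the 8 fell, where 54.9% and 66.2% of all genes were called in either direction. None was at 0 in any library, and their part in the values of Mmp2, Mmp11 and Mmp14 was not tested. Of the exon bases of Mmp11, 5.6% lie under Chchd10 on the other strand, and whether strand was used in counting is not stated.

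Mmp7 was nearly absent. Of the 19 libraries 3 held any count, with 1 count in K5 4, 2 in skin 1 and 3 in skin 3, and it was not tested. A count of 0 allows up to 3 counts.

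In all, 4 of the 9 tested genes rose in Ivl tumours (Mmp9, Mmp10, Mmp13 and Timp1) and none fell, against 35.9% of all 32031 genes called, 20.4% higher and 15.5% lower. In K5/K14 tumours 6 of 9 rose (Mmp3, Mmp9, Mmp10, Mmp12, Mmp13 and Timp1) and none fell, against 62.2% called, 23.2% higher and 38.9% lower. The median log2 fold change of the 9 was 1.70 in Ivl and 3.125 in K5/K14 tumours, and that of all genes -0.46 and -0.60. Both comparisons use the same 4 samples of normal skin. Ranges did not overlap, with tumours higher, for Mmp10 in Ivl tumours (13.2% of all genes) and for Mmp9, Mmp10, Mmp13 and Timp1 in K5/K14 tumours (16.7% of all genes). In the 15 libraries, where 54.9% and 66.2% of 31971 genes were called (22.2% and 23.9% higher), 3 of 9 rose in Ivl tumours (Mmp10, Mmp13 and Timp1) and 5 of 9 in K5/K14 tumours. The genes that lost their call there were Mmp9 in Ivl tumours (2.32 ± 0.97, adjusted p = 0.0583, edgeR) and Mmp12 in K5/K14 tumours (1.38 ± 0.61, adjusted p = 0.0562, edgeR). The call on Mmp9 in Ivl tumours was also lost when Ivl 2, 3, 4 or 5 or skin 1, 2 or 3 was left out in turn, and that on Mmp12 in K5/K14 tumours without skin 1 or skin 2.

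**Figure D2:**
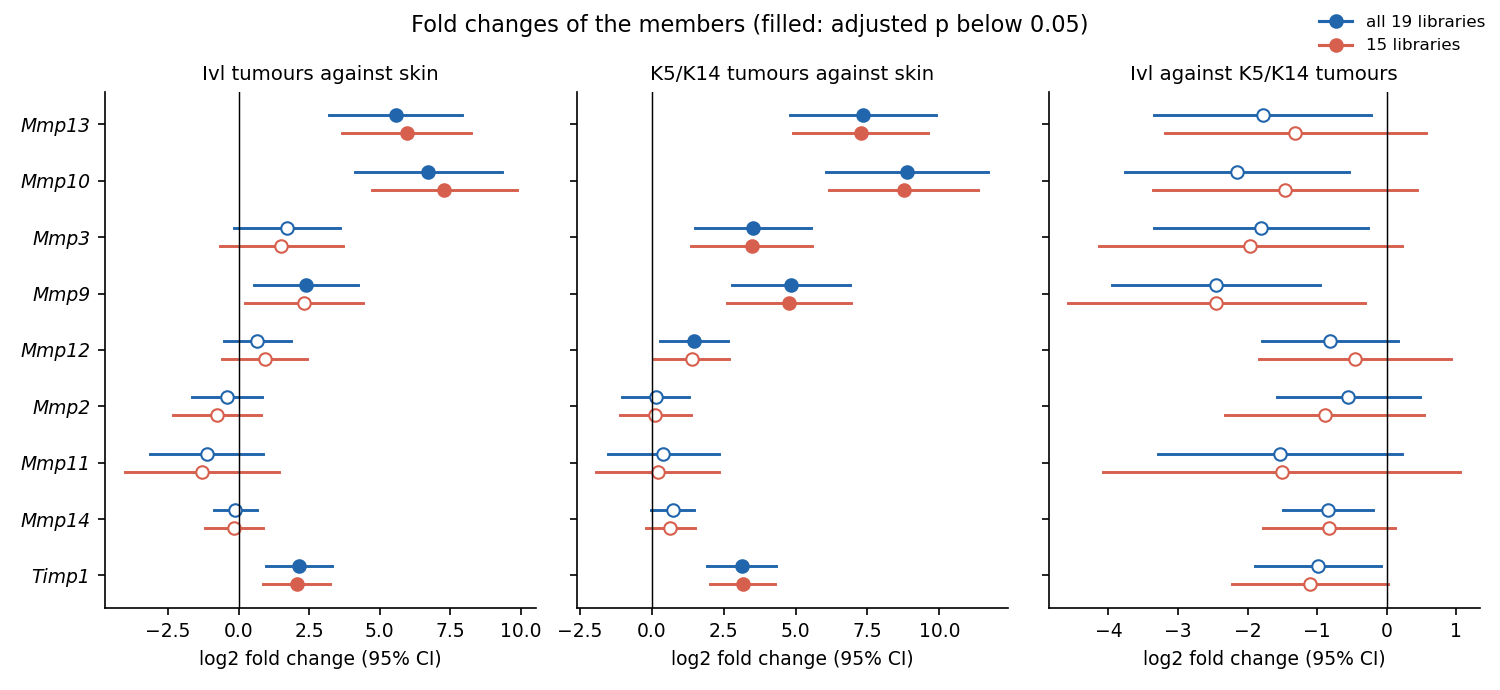
Log2 fold changes with 95% confidence intervals (horizontal) for each gene (vertical) in 3 comparisons, from all 19 libraries (blue) and from the 15 libraries without the set that stood apart (red); filled points have an adjusted p under 0.05. Mmp13 and Mmp10 have the highest fold changes against skin in both tumour groups, and all points lie below 0 in the comparison of Ivl with K5/K14 tumours, where none is filled.

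Ivl tumours were also compared with K5/K14 tumours directly. In this comparison the cell of origin cannot be told apart from the body site, the time to onset or the inducing drug. None of the 9 genes passed the test in edgeR, against 2.36% of all genes, though 6 had an unadjusted p under 0.05, against 21.1% of all genes, and all 9 were lower on average in Ivl tumours, under every scaling tried. The median of their log2 fold changes was -1.53 and that of all genes 0.11. Mmp9 came nearest to the threshold. Its mean was 43.3 ± 29.4 CPM (SD, n = 6) in Ivl and 238 ± 137 CPM (SD, n = 9) in K5/K14 tumours, a log2 difference of -2.46 ± 0.71 (adjusted p = 0.0720, edgeR). Mmp14 had a smaller difference but tighter groups, at 156 ± 27.1 and 280 ± 55.0 CPM, with a log2 difference of -0.84 ± 0.31 (adjusted p = 0.131, edgeR). For these 2 genes the ranges of Ivl and K5/K14 tumours did not overlap, which held with Ivl lower for 0.343% of all genes. The log2 differences of Mmp10, Mmp3 and Mmp13 were -2.15 ± 0.76 (adjusted p = 0.122, edgeR), -1.81 ± 0.73 (adjusted p = 0.167, edgeR) and -1.78 ± 0.74 (adjusted p = 0.177, edgeR), and those of Mmp11, Timp1, Mmp12 and Mmp2 were -1.53 ± 0.83, -0.98 ± 0.43, -0.82 ± 0.47 and -0.55 ± 0.49. DESeq2 called 3 of the 9 lower in Ivl tumours, against 2.87% of the genes it gave an adjusted p, Mmp9 (-2.47, adjusted p = 0.00288), Mmp10 (-2.16, adjusted p = 0.0263) and Mmp3 (-1.83, adjusted p = 0.0466). A fit on tumours alone in edgeR called 1 lower, against 0.875% of the genes tested there, Mmp14 (-0.84, adjusted p = 0.00842). In the 15 libraries none of the 9 passed (0.41% of all genes did), all 9 differences stayed negative, and those of Mmp9 and Mmp14 were -2.45 ± 0.99 (adjusted p = 0.364, edgeR) and -0.82 ± 0.44 (adjusted p = 0.526, edgeR). There the 3 Ivl tumours lay below all 8 K5/K14 tumours for Mmp9, Mmp14 and Timp1, which held for 2.53% of all genes. The summed fibroblast markers had a lower median in Ivl than in K5/K14 tumours, none of the 8 passed the test, and their part in these differences was not tested.

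K5 and K14 tumours were not told apart by these genes. None of the 9 passed the test in edgeR, nor did any other gene (0% of 32031), while 1945 genes had an unadjusted p under 0.05 and DESeq2 called 173 genes, 0 of the 9 among them. The log2 differences of K5 minus K14 lay between -0.09 (Mmp9, 95% CI -1.87 to 1.69) and 0.61 (Mmp10, 95% CI -1.32 to 2.55). The narrowest interval was that of Mmp14 (95% CI -0.50 to 1.14). In the 15 libraries 0 of the 9 passed (0.0532% of all genes did).

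Tumours differed widely within a group. For Mmp3, Mmp9, Mmp10 and Mmp13 the same 6 of the 15 tumours held the 6 highest levels. They were K5 1, 3, 4 and 5 and K14 3 and 4. The other 3 K5/K14 tumours, K5 2, K14 1 and K14 2, held 46.1 to 68.9 CPM of Mmp13 and 4.95 to 15.3 CPM of Mmp10, within the ranges of Ivl tumours. Mmp2, Mmp11 and Timp1 did not follow this order. K14 3, first for Mmp9, Mmp10 and Mmp13, held rank 11 for Mmp2 and rank 9 for Mmp11. Among the Ivl tumours, Ivl 1 had the lowest level of all 15 tumours for Mmp3, Mmp10, Mmp11, Mmp13, Mmp14 and Timp1. The summed fibroblast markers of the 3 lower K5/K14 tumours were 9973, 12730 and 11303 CPM and those of the other 6 lay between 3901 and 15211 CPM.

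**Figure D3:**
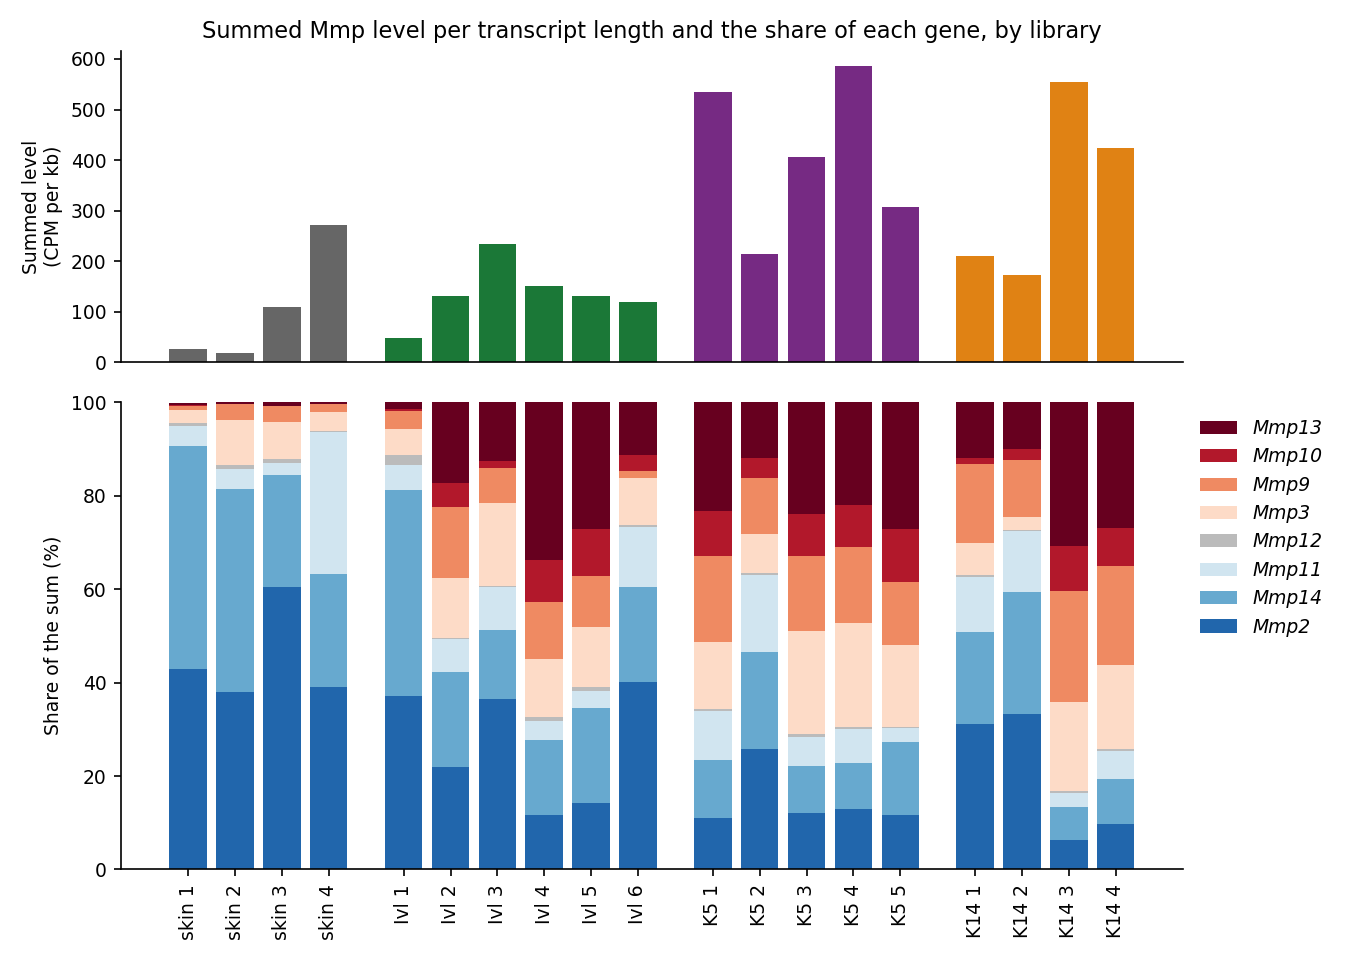
Upper bars give the summed level of the Mmp genes per kb of exon (CPM per kb) in each library, and stacked bars below give the share of each gene in that sum (%), with Mmp7 too low to be drawn. Blue shades (Mmp2, Mmp14, Mmp11) fill 85.7% to 94.9% of every skin bar, and red shades (Mmp3, Mmp9, Mmp10, Mmp13) fill 27.4% to 83.3% of the K5/K14 bars.

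To compare genes with each other, CPM were divided by the exon length of each gene. In normal skin Mmp2 ranked first (median 39.1 CPM per kb, 7.11 to 106 over 4 samples) and Mmp14 second (19.8, 8.13 to 66.0), ranges that overlap, and all others had medians of 5.23 or less. In Ivl tumours Mmp13 (25.9 CPM per kb), Mmp14 (25.5) and Mmp2 (23.5) had nearly equal medians. In K5/K14 tumours Mmp13 led (96.8, 17.3 to 170), followed by Mmp3 (76.4, 4.76 to 131), Mmp9 (65.0, 21.0 to 131), Mmp2 (55.3, 35.5 to 76.3) and Mmp14 (44.4, 38.8 to 66.4), and neighbours in this order overlapped widely. With the longest transcript as length instead, Mmp14 ranked first in Ivl and second in K5/K14 tumours. As a share of the summed level per length of the 9 Mmp genes, Mmp2, Mmp11 and Mmp14 together made up 85.7% to 94.9% in skin, 31.8% to 86.6% in Ivl and 16.3% to 72.4% in K5/K14 tumours. Every K5/K14 tumour was thus below every sample of skin, and Ivl 1 was the Ivl tumour that reached into the skin range. The sum of all 9 was 18.7 to 272 CPM per kb in skin, 47.5 to 234 in Ivl and 172 to 587 in K5/K14 tumours. Divided by Timp1 per length, it was 28.7 to 78.7 in skin, 10.8 to 22.4 in Ivl and 9.77 to 40.6 in K5/K14 tumours, so RNA of Mmp genes and of Timp1 stood in a lower ratio in every Ivl tumour than in any sample of skin. These ratios of RNA levels were not tested and say nothing of active enzyme.

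The cluster on chromosome 9 did not move as a whole. Of its 10 Mmp genes, Mmp13, Mmp1b, Mmp1a, Mmp10 and Mmp8 rose in both tumour groups and Mmp3 and Mmp12 in K5/K14 tumours, Mmp20 fell in Ivl and Mmp27 in K5/K14 tumours, and Mmp7 was not tested. The other group lay close to the threshold for both genes that fell. Mmp20 was at -2.20 in K5/K14 (adjusted p = 0.0506, edgeR) and Mmp27 at -2.58 in Ivl tumours (adjusted p = 0.0633, edgeR). In the 15 libraries Mmp27 in Ivl tumours was at -4.18 (adjusted p = 0.000754, edgeR). Mmp20 held 10, 3, 5 and 0 counts in skin. Mmp1a and Mmp1b, the mouse counterparts of human interstitial collagenase, were listed at 0 in all 4 samples of skin. Their means were 0.85 ± 0.60 and 2.22 ± 2.04 CPM (SD) in Ivl and 5.50 ± 4.58 and 9.59 ± 5.995 CPM (SD) in K5/K14 tumours. Against a floor of 3 counts per skin library, the means of Ivl tumours were at least 26.0-fold (Mmp1a) and 68.1-fold (Mmp1b) higher, and those of K5/K14 tumours at least 168-fold and 294-fold higher (adjusted p = 0.00102 to 4.94e-05 in edgeR). Of the 50-base stretches of Mmp1b, 19.7% occur in other transcripts, mostly of Mmp1a, so counts of the pair are uncertain. Mmp8, the neutrophil collagenase, named for its place in the cluster after its values were seen, rose from 0.09 ± 0.04 to 0.59 ± 0.42 CPM in Ivl and 0.95 ± 0.68 CPM in K5/K14 tumours (adjusted p = 0.00521 and 0.000461, edgeR). Mmp27 fell in K5/K14 tumours, from 5.06 ± 4.95 to 0.95 ± 1.302 CPM (-2.39 ± 0.93, adjusted p = 0.0329, edgeR). The nearest coding genes on either side, Dcun1d5 before Mmp13 and Tmem123 after Mmp7, were at medians of 37.8 and 121 CPM in skin, 75.7 and 334 in Ivl and 83.6 and 284 in K5/K14 tumours.

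**Figure D4:**
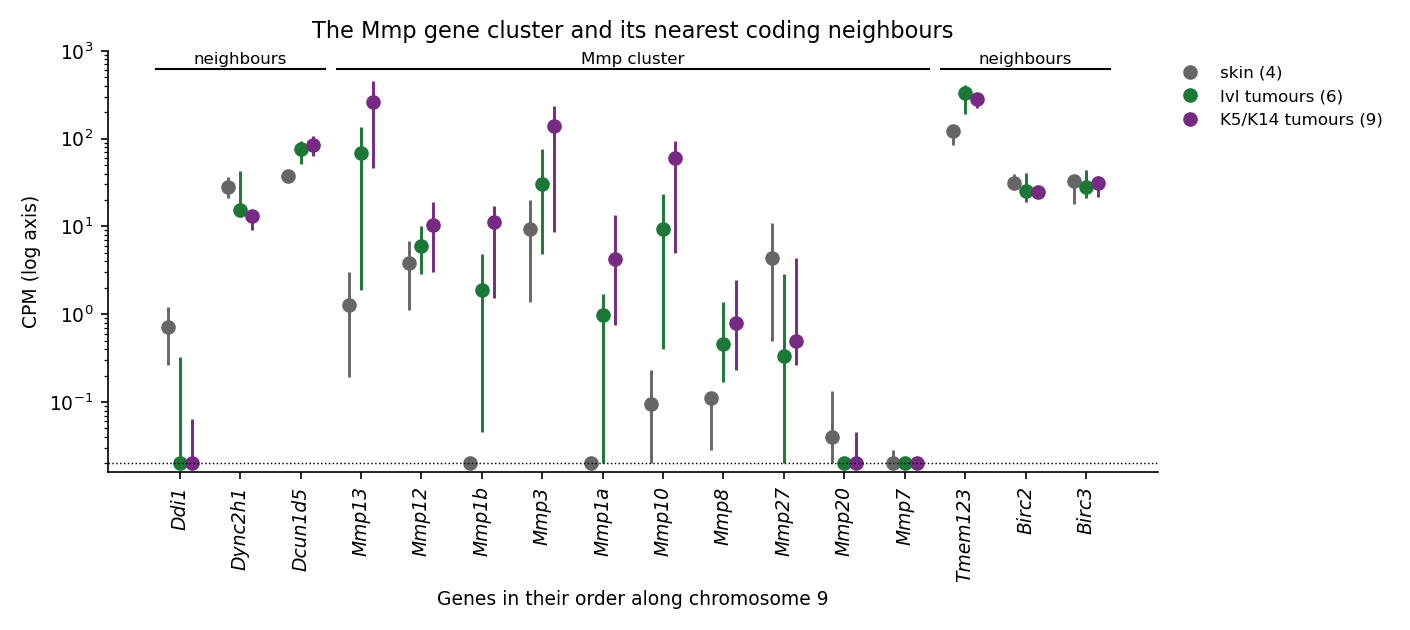
Median CPM (points, log axis) with the range over libraries (lines) in normal skin, Ivl and K5/K14 tumours for the Mmp genes of chromosome 9 in their order along it and for 3 coding genes on each side; values under 0.02 CPM are drawn at the dotted line. The widest gaps between skin and K5/K14 tumours are at Mmp13, Mmp10, Mmp1a and Mmp1b, and the medians of Mmp7 stay at the line.

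Among all 14 other Mmp genes, 3 rose and 3 fell in Ivl tumours, and 3 rose and 3 fell in K5/K14 tumours, where 20.4% and 15.5% of all genes rose and fell in Ivl and 23.2% and 38.9% in K5/K14 tumours. The number that fell depended on the scaling, at 5 and 4 with DESeq2 size factors and 7 and 8 with library totals, while 3 rose in each case. Over all 32031 genes, DESeq2 size factors called 12540 in Ivl (5712 higher) and 20475 in K5/K14 tumours (6764 higher). Library totals called 18328 (2868 higher) and 23907 (3239 higher). Of the 14 Mmp genes, those that rose were Mmp1a, Mmp1b and Mmp8 in both tumour groups. Those that fell were Mmp17, Mmp20 and Mmp21 in Ivl and Mmp21, Mmp24 and Mmp27 in K5/K14 tumours, of which Mmp20, Mmp21 and Mmp24 were under 1 CPM on average in every group and were named after their values were seen. Mmp17, a membrane-anchored enzyme, fell in Ivl tumours from 4.001 ± 1.497 to 1.97 ± 0.99 CPM (-1.02 ± 0.38, adjusted p = 0.0416, edgeR). Of the 3 other Timp genes none rose. Timp3, an inhibitor bound to the matrix, fell from 118 ± 46.01 CPM in skin to 44.98 ± 39.4 in Ivl tumours (-1.40 ± 0.52, adjusted p = 0.0436, edgeR) and 29.1 ± 9.65 in K5/K14 tumours (-2.03 ± 0.46, adjusted p = 0.00135, edgeR). Of its 50-base stretches 21.4% are shared with other genes, most with Syn3. Timp4 fell in K5/K14 tumours from 3.125 ± 1.11 to 0.34 ± 0.53 CPM (adjusted p = 0.0227, edgeR). Timp2 gave -0.78 ± 0.41 in Ivl and -0.55 ± 0.38 in K5/K14 tumours, neither past the threshold, but -1.38 (adjusted p = 0.0139, edgeR) and -1.31 (adjusted p = 0.00625, edgeR) with library totals. Per length, Timp2 had the highest level of the 4 Timp genes in each group, with medians of 60.1 CPM per kb in skin, 32.99 in Ivl and 41.2 in K5/K14 tumours. Timp1 stood at 2.21 CPM per kb in skin, below Timp3 at 13.5, and in tumours it was above Timp3, at 8.73 against 3.71 in Ivl and 15.7 against 3.16 in K5/K14.

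Genes of the cascade that switches MMP precursors on were also examined. Of 10 activators, 4 rose and none fell in Ivl tumours, and 5 rose and 3 fell (Plg, Pcsk6 and Hpn) in K5/K14 tumours. These 3 are named to complete the count, outside the naming rule given below. Plg held 0 or 1 count in each tumour, under the floor of 3 counts. Of all genes 20.4% rose and 15.5% fell in Ivl and 23.2% and 38.9% in K5/K14 tumours. These shares also apply to the other inhibitors below. With DESeq2 size factors 1 and 4 activators fell, with library totals 4 and 5, and in the 15 libraries 2 and 4. Calls over all genes under these scalings are given above. In the 15 libraries 54.9% and 66.2% of all genes were called, 22.2% and 23.9% higher. Plau, which encodes urokinase, rose from 29.6 ± 12.8 CPM in skin to 84.2 ± 22.4 in Ivl and 136 ± 32.9 in K5/K14 tumours (1.51 ± 0.29 and 2.20 ± 0.29, adjusted p = 0.000434 and 5.997e-06, edgeR). Its receptor Plaur rose by 1.61 ± 0.49 and 2.16 ± 0.49, Bsg, an inducer of MMP expression, by 1.11 ± 0.17 and 1.47 ± 0.17, and Furin, a protease that cuts the precursor of Mmp14, by 0.61 ± 0.20 and 0.94 ± 0.19. With library totals in place of TMM the value of Furin turned to -0.09 in Ivl and was 0.13 in K5/K14 tumours, neither past the threshold, and Plaur in Ivl tumours was at 0.96 (adjusted p = 0.0800, edgeR). Plat, tissue plasminogen activator, rose in K5/K14 tumours (1.96 ± 0.42, adjusted p = 0.000789, edgeR) and gave 0.75 ± 0.42 in Ivl tumours (adjusted p = 0.1499, edgeR). Of 4 other inhibitors, Serpine2, which blocks plasminogen activators, rose in Ivl tumours, and Serpine2, Tfpi2 and A2m (the last at 0.20 CPM on average, at 0 as in skin in 6 of the 9 tumours, and named after its values were seen) rose in K5/K14 tumours, where Reck fell. Serpine2 went from 13.3 ± 3.61 CPM in skin to 59.3 ± 32.4 in Ivl and 112 ± 27.4 in K5/K14 tumours (2.15 ± 0.38 and 3.08 ± 0.38, adjusted p = 0.000193 and 4.30e-06, edgeR). Reck, a membrane-anchored inhibitor of Mmp9, Mmp2 and Mmp14, was at 17.9 ± 10.3 CPM in skin and 4.51 ± 2.25 in K5/K14 tumours (-1.99 ± 0.58, adjusted p = 0.00702, edgeR). None of these genes passed the test between Ivl and K5/K14 tumours or between K5 and K14 tumours.

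**Figure D5:**
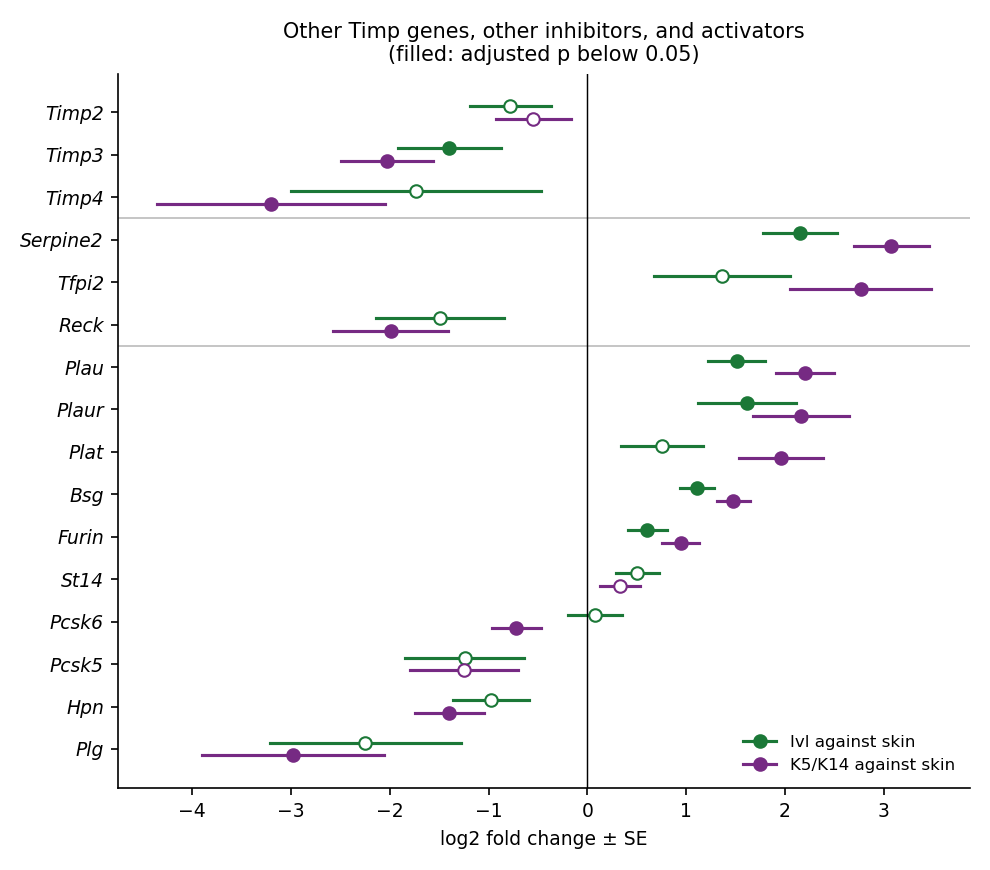
Log2 fold change against normal skin with its SE (horizontal) for the other Timp genes (top), other inhibitors (middle) and activators of MMP precursors (bottom), in Ivl and K5/K14 tumours; filled points have an adjusted p under 0.05. Serpine2 lies highest in both tumour groups and the 3 Timp genes lie below 0; A2m, listed at 0 in all skin libraries, is left out.

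Across all 19 libraries the genes whose log2 levels ran most nearly parallel to the members were sought among 15354 genes with a mean over 1 CPM. The measure was the root mean square of the gap between the 2 centred profiles in log2 units, 0 being identical. For Mmp10 the 3 nearest genes were Mmp13 (0.70), Mmp1b (0.79) and Mmp1a (0.94), all of the same cluster, and for Mmp13 they were Mmp10, Mmp1a and Mmp1b. Mmp12 was nearest to Pla2g7, the macrophage marker Cd68 and Ccdc88b (0.52, 0.60 and 0.61). Of the 7 macrophage markers, Cd68 included, 0 rose and 1 fell in K5/K14 tumours against skin, where 23.2% of all genes rose and 38.9% fell. Their median log2 fold change there was -1.01, with 1 of the 7 above 0, and the value of Mmp12 was 1.48. The part of macrophages in the values of Mmp12 was not tested. Mmp14 was nearest to B3gnt9 (0.26), Mmp2 to Fkbp7 (0.30), and Mmp11 to Mxra8 (0.79), with the collagen gene Col5a2 also among the 3 nearest (0.87). Mmp3 was nearest to Kcne3 (0.66) and Timp1 to Trem2 (0.46). These are descriptions over libraries of 4 groups.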

How the data were processed

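RNA came from 15 skin tumours of mice with BRAFV600E and 4 normal skins, and poly(A) libraries were sequenced as read pairs. According to the submitters' processing notes and the published methods, the authors trimmed reads with Trim Galore, checked them with FastQC 0.11.8, aligned them with HISAT2 2.1.0 to GRCm38 and counted them per gene with featureCounts (Subread 1.6.3). The deposited values are estimated counts, since the authors adjusted them for a sequencing batch with ComBat-seq. They were whole numbers, not scaled for library size. The study reports batches of 4 and 15 samples, which are the sizes of the set of 4 libraries that stood apart and of the other 15. Which library was in which batch is not given in the sources used here, nor is the strand setting of the counting.

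The 32031 genes that reached 5 counts in 1 or more libraries were tested with edgeR 4.0.16 (R 4.3.3): TMM scaling, quasi-likelihood F test, two-sided, Benjamini-Hochberg adjustment over all genes, threshold 0.05. All 19 libraries shared 1 estimate of spread. The SE was the absolute log2 fold change over the square root of F. Libraries served as replicates, and the labels do not say whether they came from separate animals, so p-values measure only the spread between them. Counting intervals and floors (3 counts) leave out error of the batch adjustment. No 2 libraries of a group agreed within sampling noise (37 pairs, smallest chi-square per degree of freedom 25.9). The test was checked on simulated counts with 1 spread for all genes, changes set only in Ivl, and no wider shift between skin and tumours. That check therefore does not cover the wide spread within groups or the differing TMM factors of these data. Alternatives were DESeq2 1.42.0, other scalings and filters, a replicate block, the 15 libraries alone, fits on the compared groups, and each library left out. Library totals as scaling were added after the TMM factors had been seen. Positions and lengths came from GENCODE release M21 on GRCm38, and promoter sequences from RefSeq.

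The 10 genes, the lists of other family members, activators, inhibitors and cell type markers, and the tests were chosen with earlier results of these data known. Genes of the lists were named where an adjusted p was under 0.05 and a group mean was at least 1 CPM, up to 5 a list, with exceptions stated. A gene of the inhibitor list is not reported here.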

Additional observations from a re-analysis of the deposited data

Results flagged for a closer look

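Of 45 sets of levels (a gene in the samples of a group) examined for a sample far from the rest, 2 held one, where chance alone gives about 1 in 20. Mmp11 in normal skin reached 228 CPM in skin 4, with the next sample at 7.76 CPM, a gap of 0.975 of the whole range, with 4 samples. Timp1 in Ivl tumours reached 19.2 CPM in Ivl 3, with the next at 8.61 CPM, a gap of 0.644 of the range, with 6 samples. Skin 4 also had the highest summed fibroblast markers of all libraries (18554 CPM), and Ivl 3 the highest of the Ivl tumours (10909 CPM); their part in these values was not tested.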

How the results depend on the processing

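Mmp10, Mmp13 and Timp1 in both tumour groups, and Mmp3 and Mmp9 in K5/K14 tumours, passed the threshold against skin under all 28 alternatives. Mmp9 in Ivl tumours passed under 17 of 28 and Mmp12 in K5/K14 tumours under 24 of 28. Leaving out 1 library at a time gave 3 to 5 genes called in Ivl and 5 to 8 in K5/K14 tumours against skin, 0 to 1 between Ivl and K5/K14, and 0 to 0 between K5 and K14. Between Ivl and K5/K14 tumours DESeq2 called 3, a fit on the compared groups 1, and the fit without skin 4 called 1 (Mmp14, -0.85, adjusted p = 0.0403, edgeR).

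Some log2 fold changes that were not called changed sign, and the cause was not tested. Leaving out 1 library at a time, values in Ivl tumours against skin ran from -0.89 to 0.33 for Mmp2, -1.54 to 2.63 for Mmp11 and -0.43 to 0.71 for Mmp14, each highest without skin 4. Mmp2 in K5/K14 tumours ran from -0.21 to 0.89. Between K5 and K14 the ranges were -0.0065 to 0.30 for Mmp2, -0.39 to 0.42 for Mmp9 and -0.17 to 0.82 for Mmp13. With library totals, Mmp12 in Ivl tumours became -0.026, and Mmp2, Mmp11 and Mmp14 in K5/K14 tumours -0.60, -0.32 and -0.035. Mmp2 in K5/K14 tumours was -0.0090 with the filterByExpr filter. With a replicate block, 4, 7, 0 and 0 genes were called in the 4 comparisons (the addition being Mmp14 in K5/K14 tumours, 0.96, adjusted p = 0.0466, edgeR), Mmp11 and Mmp14 in Ivl tumours became 0.58 and 0.14, and Mmp9 between K5 and K14 0.36. Replicate numbers did not pair the libraries: deviations of same-numbered libraries correlated between -0.48 and 0.39 (25 pairs, 9 over 0.1), and 2 of 19 libraries were nearest to their own number.

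The precision is limited by the 4 samples of skin, of which 1 moves Mmp11 and Mmp14 most, and by the 3 Ivl tumours left in the 15 libraries. What the batch adjustment did to each value was not tested.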
